A study of Homo sapiens with 6 samples.

Results

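Replacement histone variants are the histones that a cell can make and load into chromatin outside DNA replication. They make up 10 rows of the deposited count table, of 54261 gene rows in all, and the 9 described here are H2AFX, H2AFZ, H2AFV, H2AFJ, H2AFY, H2AFY2, H3F3A, H3F3B and H1FX. The members were taken from a list of symbols and not by their values. They were compared between 7R, a sunitinib-resistant line derived from 786-O, and 786-O itself, a long-established line from a human clear-cell kidney carcinoma, with 3 libraries of total RNA for each line. Sunitinib is an inhibitor of VEGF, PDGF and other receptor kinases. Both lines were grown in 1640 medium, and 7R is a single resistant line. The labels do not say whether the drug was in the medium at harvest. They also do not tie libraries to separate cultures, so the spread behind each p-value may be only technical. How RNA was selected for sequencing is not given in the sources used here.

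Canonical histones are made in S phase from clustered genes without introns, and their mRNAs end in a stem loop in place of a poly(A) tail. Most replacement variants come from solitary genes that give polyadenylated mRNAs, and dedicated chaperones place the proteins at particular sites. H2A.X carries a serine near its end that is phosphorylated around DNA breaks. H2A.Z marks promoters and enhancers, H3.3 is deposited at active genes and at telomeres and pericentric repeats, and macroH2A carries a large extra domain and is enriched in repressed chromatin. H1X is a linker histone, which binds where DNA enters and leaves the nucleosome.

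The stem loop is shown because H2AFX is the member whose mRNA can end in that structure as well as in a poly(A) tail. The stem-loop pattern, GG, 2 of any base, CTTTT, 1 of any base, AG, 2 of any base and CC, was read on the transcript strand of GENCODE release 29 transcripts. It was found in 1 of the 10 members, H2AFX, in 30 of 66 replication-dependent histone genes (45.5%) and in 71 of 56917 genes (0.125%). A match describes the letters only, and a missing match does not show that a gene lacks the loop. Some annotated transcripts are short, for instance 381 bases for HIST1H2BK and 312 bases for HIST1H4D, and may stop before it. The site of H2AFX, on chromosome 11, and that of the replication-dependent H2A gene HIST1H2AE, on chromosome 6, are given with 5 bases on either side, and capitals mark the pattern.
H2AFX: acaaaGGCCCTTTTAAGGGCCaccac
HIST1H2AE: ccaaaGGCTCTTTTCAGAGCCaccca

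The start of the coding sequence is shown for the H3.3 genes because it decides which reads can be told apart. H3F3A, on chromosome 1, and H3F3B, on chromosome 17, encode the same protein from different codons. Over 408 coding bases they share 320 and differ at 88, and the longest identical run is 14 bases. H3F3AP4, a processed pseudogene on chromosome 2, matched H3F3A at all 408 coding bases. The first 90 coding bases from GENCODE release 29 are given, and capitals mark the 21 bases at which H3F3B differs from H3F3A. The first 90 bases of H3F3AP4 are the same letters as those of H3F3A.
H3F3A: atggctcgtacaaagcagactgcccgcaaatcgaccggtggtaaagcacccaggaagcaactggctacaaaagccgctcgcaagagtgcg
H3F3B: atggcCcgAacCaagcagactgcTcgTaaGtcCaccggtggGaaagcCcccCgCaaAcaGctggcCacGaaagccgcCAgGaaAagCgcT

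Levels are CPM, the counts of a gene brought to one common library total, and scaled by TMM, a factor per library that sets the typical gene equal between libraries. Fold changes are 7R over 786-O on the log2 scale, and a gene was called when edgeR's quasi-likelihood test gave a Benjamini-Hochberg adjusted p under 0.05 over all genes tested. Of the 9 members described, 8 had enough counts to be tested. Of these, 0 rose, 5 fell in 7R (H2AFX, H1FX, H2AFJ, H2AFZ and H2AFY) and 3 did not pass the test (H2AFV, H3F3A and H3F3B). Over the whole table, 76.2% of 16642 genes were called, 39.3% higher and 36.9% lower. For 6 of the 8 tested members the libraries of the lines did not overlap, against 80.3% of all genes tested. The median log2 fold change was -0.46 over the 8 tested members and 0.05 over all genes, and 3 members (H2AFX, H1FX and H2AFJ) were at least 2-fold lower. H2AFY2 was lost to the filter on low counts and is not in these figures.

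**Figure D1:**
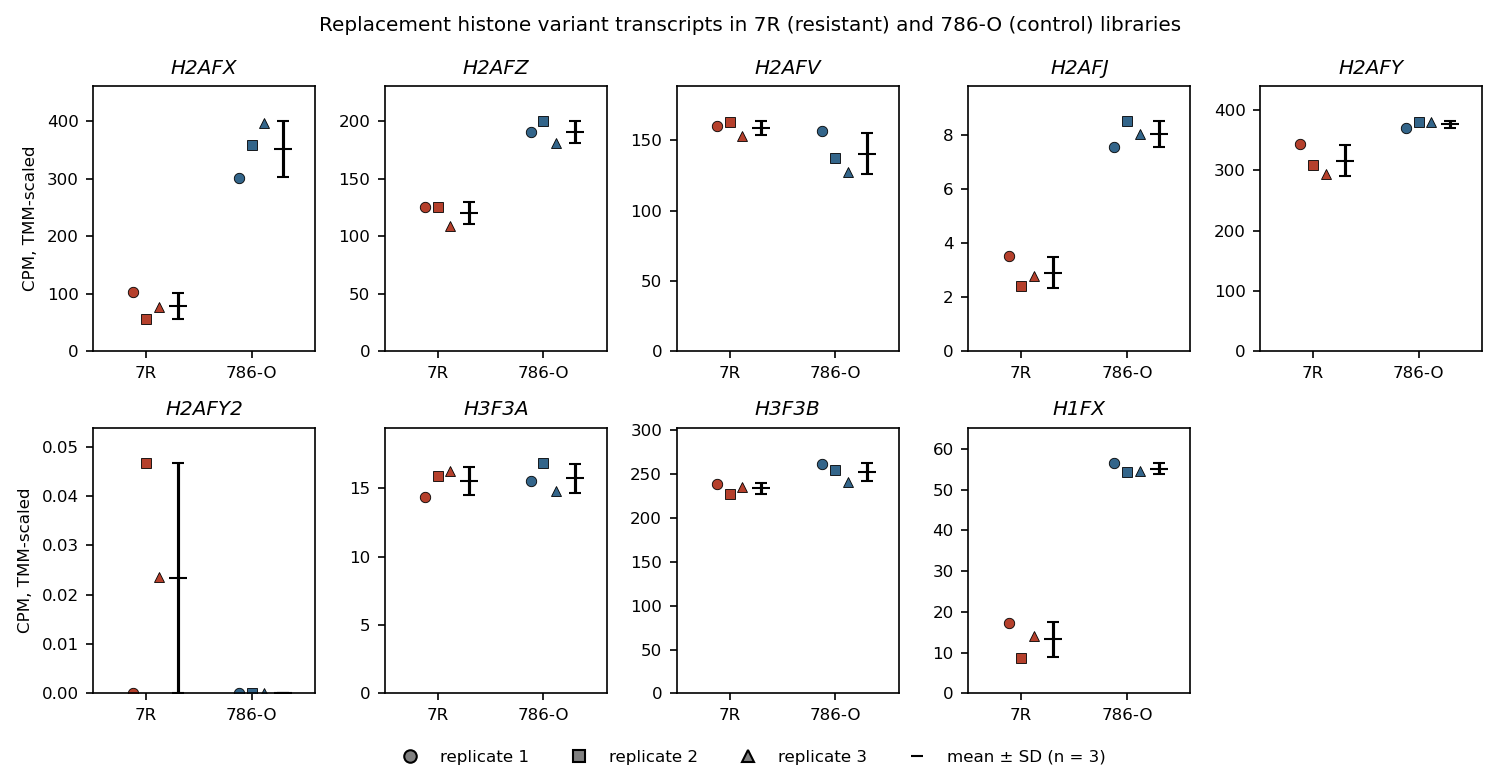
TMM-scaled CPM of the 9 replacement histone variants described (vertical axes, each from 0) in the 3 7R libraries and the 3 786-O libraries, with the mean and SD beside the points. H2AFX, H1FX, H2AFJ, H2AFZ, H2AFY and H3F3B lay lower in every 7R library than in any 786-O library, H3F3B by a small margin. H3F3A and H2AFV overlapped between the lines.

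The libraries differed in ways that touch every value below. Total counts were 37919629 to 38131634 in the 7R libraries and 48264905 to 52221491 in the 786-O libraries, and the TMM factors were 1.12 to 1.14 in 7R and 0.867 to 0.912 in 786-O. Scaling by library size alone moved the median fold change of all genes to 0.39 and the share of called genes that were higher to 62.5%, against 51.6% with TMM. Replicate 1 of each line stood apart, more so in 7R. For 7R replicate 1 a chi-square statistic over its degrees of freedom was 60.1 and 62.9 against the other 7R libraries, and 8.94 between those. For 786-O replicate 1 it was 26.5 and 35.5 against the other 786-O libraries, and 12.4 between those. Fold change went with the GC content of transcripts (Spearman's rho = -0.69 across 14150 genes, which are not independent replicates and share these 6 libraries). A second fit therefore removed a trend on GC content and length in each library, and it is called the GC and length offset below. Under this fit 67.1% of 14150 genes were called, 33.9% higher and 33.2% lower, and the members gave 3 higher (H2AFY, H3F3B and H2AFV), 4 lower (H2AFX, H1FX, H2AFZ and H3F3A) and 1 not called (H2AFJ). The renal epithelial marker PAX8 was present in both lines, at 407 CPM in 7R and 545 CPM in 786-O. Of 11 tested renal markers 0 rose and 7 fell, with a summed level of 4344 ± 494 CPM in 7R and 13885 ± 677 CPM in 786-O (SD, n = 3 each), of which VIM held 2406 CPM in 7R and 9987 CPM in 786-O. The offset turned this list to 3 higher and 5 lower, with PAX8 at 0.49, PAX2 at 0.22 and CDH16 at 0.88. The extraction text in the labels names a brain region, and 14 brain markers summed to 58.0 ± 4.16 CPM in 7R and 33.8 ± 1.56 CPM in 786-O (SD, n = 3 each), of which MBP held 39.4 CPM in 7R and 25.1 CPM in 786-O. NEUROD6, GAD2 and OLIG2 were at 0 in all 6 libraries. Of the 6 brain markers tested, 4 rose in 7R (MBP, SNAP25, SYT1 and AQP4) and 1 fell (GAD1), and under the offset 5 rose and 1 fell. SNAP25 averaged 12.9 CPM in 7R and 3.32 CPM in 786-O, SYT1 2.29 CPM in 7R and 0.405 CPM in 786-O, and AQP4 0.359 CPM in 7R with 0 counts in each 786-O library. Their part in the results was not tested.

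H2AFX, which encodes H2A.X, fell in 7R and had the lowest log2 fold change of the tested members, within the SE of that of H1FX. It held 102, 57.0 and 77.0 CPM in the 7R libraries, against 300, 358 and 397 CPM in the 786-O libraries. Every 7R library lay below every 786-O library by a wide margin, and 7R replicate 1 was the highest of its line. The means were 78.8 ± 22.8 CPM in 7R and 352 ± 48.7 CPM in 786-O (SD, n = 3 each), a log2 fold change of -2.16 ± 0.19 (SE, edgeR adjusted p = 8.65e-07). Without 7R replicate 1 the log2 fold change was -2.40. H2AFX transcripts have a GC content of 66.4%, and with the GC and length offset the log2 fold change was -0.56 (edgeR adjusted p = 0.000515).

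**Figure D2:**
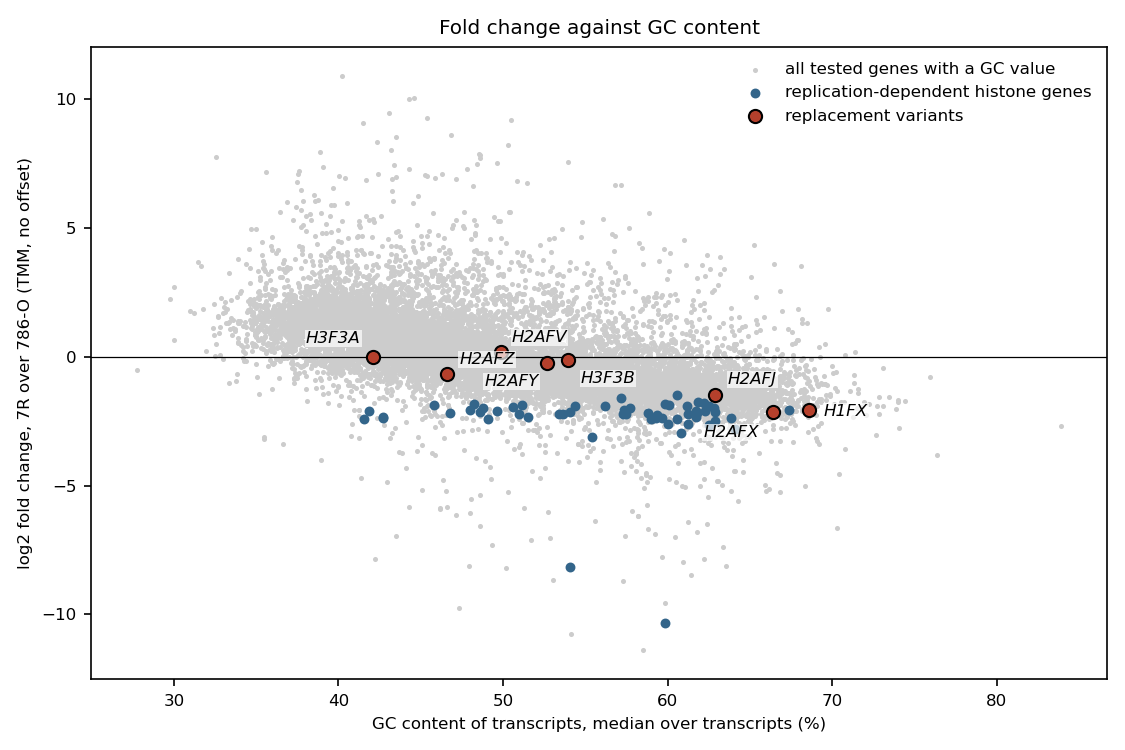
Log2 fold change of 7R over 786-O without the offset (vertical axis) against the median GC content of each gene's transcripts in percent (horizontal axis), for 14150 tested genes in grey, replication-dependent histone genes in blue and the 8 tested replacement variants in red. H2AFX, H1FX and H2AFJ sit at the GC-rich end (62.9% to 68.6%), and H3F3A at 42.1% sits on the zero line.

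The replication-dependent histone genes, whose mRNAs end in the stem loop, fell as well. Of 66 replication-dependent histone genes 58 were tested, and all 58 fell in 7R. Their log2 fold changes ranged from -10.33 to -1.47 with a median of -2.19, and 31 lay below H2AFX and 27 above it. Together the 66 genes took 0.720, 0.471 and 0.483% of the counts in the 7R libraries, against 1.58, 1.96 and 2.02% in the 786-O libraries. The 4 most abundant were HIST1H2AM, HIST2H2AC and HIST1H2AE, which encode H2A, and HIST1H1B, which encodes a linker histone. HIST1H2AM averaged 673 ± 111 CPM in 7R and 2283 ± 435 CPM in 786-O, with a log2 fold change of -1.76. HIST1H1B averaged 303 ± 82.1 CPM in 7R and 1444 ± 238 CPM in 786-O (-2.26), HIST2H2AC 313 ± 59.3 CPM in 7R and 1240 ± 222 CPM in 786-O (-1.99), and HIST1H2AE 248 ± 58.0 CPM in 7R and 932 ± 145 CPM in 786-O (-1.91; SD, n = 3 each). Copies in these clusters are close in sequence, so reads may be split between them.

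Set against those genes, H2AFX overlapped between the lines. It held 16.1, 13.6 and 17.9 counts per 1000 replication-dependent histone counts in the 7R libraries, against 17.4, 16.1 and 17.0 in the 786-O libraries. The means were 15.9 ± 2.16 in 7R and 16.8 ± 0.63 in 786-O (SD, n = 3 each). Their difference of -0.97 was smaller than the SD in 7R but larger than that in 786-O (exact two-sided permutation test, p = 0.70, also 0.70 adjusted over 7 ratios, smallest possible p 0.10). The 10 members summed, by contrast, stood at 159, 217 and 209 counts per 1000 in the 7R libraries and at 78.6, 63.6 and 60.1 in the 786-O libraries, with no overlap. Their own sum was 939 ± 57.9 CPM in 7R and 1391 ± 28.6 CPM in 786-O (SD, n = 3 each), while the replication-dependent sum was 4952 ± 1209 CPM in 7R and 20945 ± 3217 CPM in 786-O. Under the GC and length offset the median of the replication-dependent genes was -1.42, and 57 of the 58 then lay below H2AFX. Their median GC content is 58.9%, lower than that of H2AFX, and the part of GC content in these orders was not tested.

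Of the H2A.Z genes, H2AFZ fell in 7R and H2AFV did not pass the test. H2AFZ, which encodes H2A.Z.1, held 126, 125 and 109 CPM in the 7R libraries, against 191, 201 and 181 CPM in the 786-O libraries. Its groups did not overlap. The means were 120 ± 9.64 CPM in 7R and 191 ± 9.67 CPM in 786-O (SD, n = 3 each), and the log2 fold change was -0.67 ± 0.10 (SE, edgeR adjusted p = 7.91e-05). H2AFV, which encodes H2A.Z.2, held 160, 163 and 153 CPM in the 7R libraries, against 157, 137 and 128 CPM in the 786-O libraries. These ranges overlapped, and the log2 fold change of 0.18 ± 0.11 did not pass the test (SE, edgeR adjusted p = 0.144).

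The pair shares 309 of 384 coding bases, differs at 75 and has no identical run over 23 bases. H2AFZ made up 44.0, 43.4 and 41.5% of the counts of the pair in the 7R libraries, against 54.9, 59.3 and 58.6% in the 786-O libraries. The share thus lay lower in 3 of 3 7R libraries, at 43.0 ± 1.29% in 7R and 57.6 ± 2.39% in 786-O (SD, n = 3 each). The difference of -14.6 percentage points gave p = 0.10 in an exact two-sided permutation test, the smallest p this design allows, and 0.20 after Benjamini-Hochberg adjustment over 4 paralog pairs. A share within a library does not depend on the scaling between libraries. H2AFZ was at -0.94 with the GC and length offset (edgeR adjusted p = 5.16e-07). H2AFV was at 0.21 (edgeR adjusted p = 0.0420) with the median GC content of its transcripts (49.9%), at -0.40 (edgeR adjusted p = 0.000296) with that of its longest transcript (43.1%), and at 0.52 (edgeR adjusted p = 0.00135) with library size alone. H2AFZ fell under each of these settings, and the direction of H2AFV depended on the transcript taken.

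**Figure D3:**
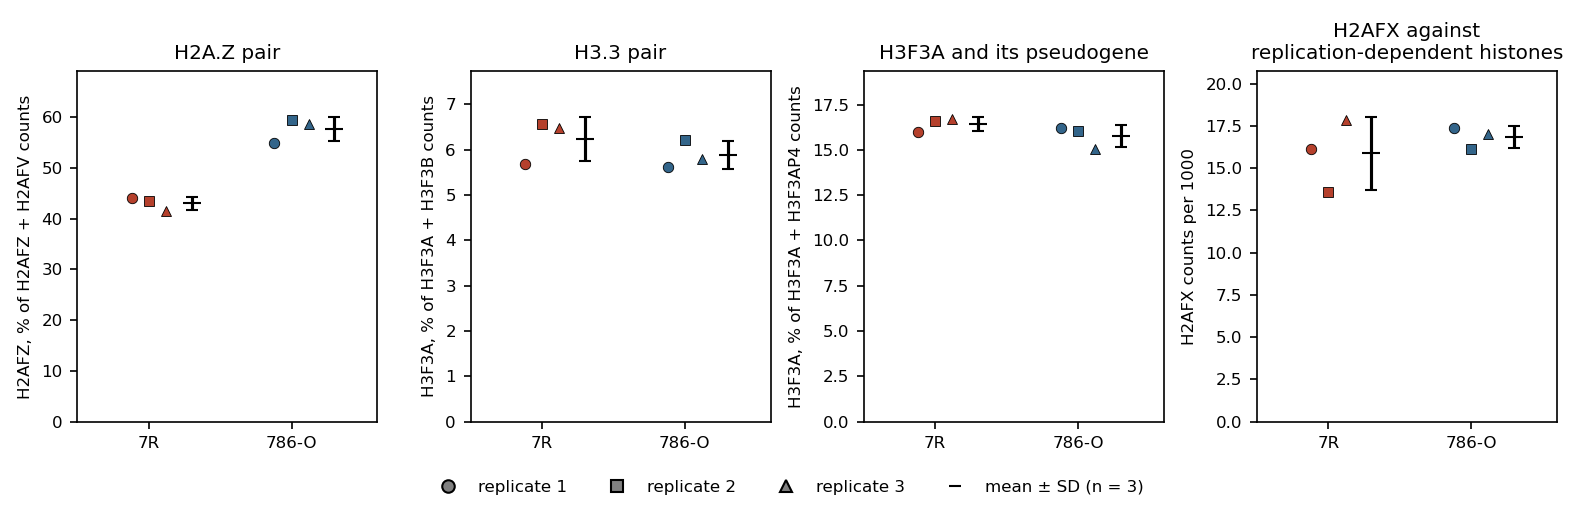
Ratios of counts within a library (vertical axes, each from 0, in percent or per 1000 counts) in the 3 7R libraries and the 3 786-O libraries, with the mean and SD beside the points. The H2AFZ share of the H2A.Z pair was 41.5 to 44.0% in 7R and 54.9 to 59.3% in 786-O, while the other 3 ratios overlapped between the lines.

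Neither H3.3 gene passed the test. H3F3A held 14.4, 15.9 and 16.3 CPM in the 7R libraries, against 15.6, 16.9 and 14.8 CPM in the 786-O libraries. The groups overlapped, with a log2 fold change of -0.02 ± 0.12 (SE, edgeR adjusted p = 0.887). H3F3B held 238, 227 and 236 CPM in the 7R libraries, against 261, 255 and 240 CPM in the 786-O libraries. The groups did not overlap but lay close, and the log2 fold change was -0.11 ± 0.09 (SE, edgeR adjusted p = 0.292). H3F3A made up 6.24 ± 0.48% of the counts of the pair in 7R and 5.88 ± 0.30% in 786-O (SD, n = 3 each; exact two-sided permutation test, p = 0.30, adjusted over 4 pairs p = 0.40).

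Both H3.3 values are sensitive to GC content and both rows have limits. H3F3A was at -0.84 with the GC and length offset (edgeR adjusted p = 1.69e-05). H3F3B was at 0.42 (edgeR adjusted p = 0.000516) with the median GC content of its transcripts (54.0%) and at -0.58 (edgeR adjusted p = 1.60e-05) with that of its longest transcript (43.1%). With library size alone H3F3A was at 0.32 (edgeR adjusted p = 0.0345) and H3F3B at 0.23 (edgeR adjusted p = 0.0508), so no direction held for either gene. H3F3B overlaps UNK, a gene on the other strand, over 1123 bases. UNK had 2021, 1740 and 1752 counts in the 7R libraries and 2608, 2641 and 2996 counts in the 786-O libraries. Reads of overlapping genes cannot be told apart if counting ignored strand, which is not given in the sources used here.

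More counts lay on the pseudogene H3F3AP4 than on H3F3A. Of 15 rows named as pseudogenes of members, 11 were at 0 in all libraries and 2, both copies of H3F3A, had over 100 counts in all. H3F3AP4 held 3264, 3423 and 3457 counts in the 7R libraries, against 3547, 3839 and 3780 counts in the 786-O libraries. H3F3A itself held 620, 682 and 692 counts in 7R and 685, 733 and 670 counts in 786-O. Since the coding letters are identical, reads from that stretch cannot be assigned to either gene by sequence, and the level of H3F3A is uncertain. The split overlapped between the lines: H3F3A made up 16.4 ± 0.40% of the counts of both rows in 7R and 15.8 ± 0.61% in 786-O (SD, n = 3 each; exact two-sided permutation test, p = 0.30, adjusted over 7 ratios p = 0.42). H3F3AP4 had a log2 fold change of -0.09 ± 0.10 (SE, edgeR adjusted p = 0.416), and H3F3A summed with its pseudogene rows also had -0.09 (edgeR adjusted p = 0.421). With the GC and length offset H3F3AP4 was at 0.09 (edgeR adjusted p = 0.403), where H3F3A was at -0.84. The offset took 51.6% GC and 411 bases for H3F3AP4, and 42.1% GC and 1198 bases for H3F3A. The part of these settings in the gap was not tested, and H3F3AP4 is no separate check on H3F3A.

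H2AFY, which encodes macroH2A1, was the least changed of the called members. It held 344, 309 and 294 CPM in the 7R libraries, against 370, 380 and 379 CPM in the 786-O libraries. The groups did not overlap, and the means were 316 ± 25.5 CPM in 7R and 376 ± 5.81 CPM in 786-O (SD, n = 3 each). The log2 fold change of -0.25 ± 0.10 (SE, edgeR adjusted p = 0.0309) was not kept: it was 0.09 (edgeR adjusted p = 0.436) with library size alone and 0.38 (edgeR adjusted p = 0.000276) with the GC and length offset. The call was also lost without 7R replicate 2 (-0.24, edgeR adjusted p = 0.0884), without 7R replicate 3 (-0.21, edgeR adjusted p = 0.130), without 786-O replicate 2 (-0.30, edgeR adjusted p = 0.0580) and without 786-O replicate 3 (-0.28, edgeR adjusted p = 0.0534). H2AFY2, which encodes macroH2A2, had 0, 2 and 1 counts in the 7R libraries and 0 in each 786-O library. A count of 0 allows up to 3 counts in a library, 0.0694 to 0.0707 CPM in 7R and 0.0663 to 0.0691 CPM in 786-O for counting error only, so no fold is given. The macroH2A counts of both lines thus came almost wholly from H2AFY, at 99.99 ± 0.01% in 7R and 100% in each 786-O library. H2AFY2 overlaps AIFM2, a gene on the other strand, over 14058 bases. AIFM2 had 898 to 983 counts in 7R and 867 to 1000 counts in 786-O. If counting ignored strand, reads of that overlap cannot be told apart.

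H2AFJ encodes H2A.J, an H2A variant known from human cells to accumulate in senescence. It was rare here, at 3.54, 2.41 and 2.78 CPM in the 7R libraries, against 7.59, 8.55 and 8.06 CPM in the 786-O libraries. The groups did not overlap, and the log2 fold change was -1.47 ± 0.19 (SE, edgeR adjusted p = 1.64e-05). Its transcript has a GC content of 62.9%. The GC and length offset brought the log2 fold change to -0.25, and the call was lost (edgeR adjusted p = 0.150).

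H1FX, which encodes the linker histone H1X, fell in 7R. It held 17.2, 8.65 and 14.1 CPM in the 7R libraries, against 56.7, 54.3 and 54.7 CPM in the 786-O libraries. The 786-O libraries lay close together and the 7R libraries were spread, with replicate 1 the highest. The means were 13.3 ± 4.33 CPM in 7R and 55.2 ± 1.27 CPM in 786-O (SD, n = 3 each), a log2 fold change of -2.05 ± 0.20 (SE, edgeR adjusted p = 1.84e-06) and -2.29 without 7R replicate 1. H1FX has the highest GC content of the members (68.6%), and with the GC and length offset the log2 fold change was -0.43 (edgeR adjusted p = 0.00891). The antisense gene H1FX-AS1, which overlaps it over 886 bases, had 24 to 58 counts in 7R and 30 to 56 counts in 786-O, set beside 370 to 743 counts of H1FX in 7R and 2355 to 2494 in 786-O.

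**Figure D4:**
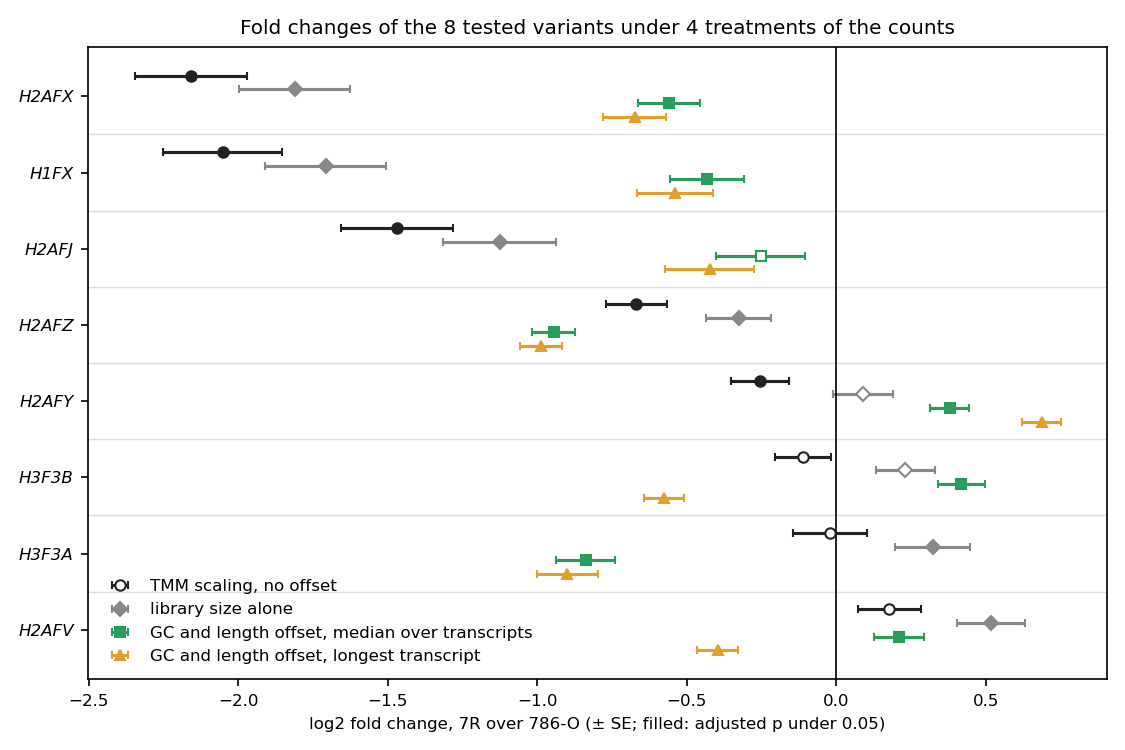
Log2 fold change of 7R over 786-O with its SE (horizontal axis) for the 8 tested variants under TMM scaling, library size alone, and the GC and length offset from the median or from the longest transcript. Filled symbols had an adjusted p under 0.05. H2AFX, H1FX and H2AFZ lay below 0 under all 4, H2AFY, H3F3B, H3F3A and H2AFV changed side, and H2AFJ stayed below 0 but was not called with the median-transcript offset.

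Per kilobase of transcript, the order of the members also differed between the lines. With the median transcript length, H3F3B was highest in both, at 344 ± 8.63 CPM per kb in 7R and 371 ± 15.8 CPM per kb in 786-O (SD, n = 3 each). In 7R it was followed by H2AFV (242), H2AFY (170), H2AFZ (123), H2AFX (48.9), H3F3A (13.0), H1FX (8.84) and H2AFJ (4.52), and no neighbours in this order overlapped between libraries. In 786-O, H2AFX (218), H2AFV (214), H2AFY (203) and H2AFZ (195) came next, and each of them overlapped its neighbour. H1FX (36.6), H3F3A (13.1) and H2AFJ (12.5) were lowest in 786-O, and H3F3A and H2AFJ overlapped. H3F3A was placed by its own row alone, without the pseudogene H3F3AP4, which averaged 79.0 CPM in 7R and 84.2 CPM in 786-O. Reads of their shared coding letters cannot be assigned to either, so the place of H3F3A is uncertain. The order depends on the length taken: with the longest transcripts, H3F3B was at 86.4 in 7R and 93.3 in 786-O, and H2AFV at 41.8 in 7R and 37.0 in 786-O. H2AFX stood at 48.9 CPM per kb in 7R and 218 in 786-O on either length, since the annotation holds a single transcript for it. Its mRNA can also end in the stem loop, and no separate length was used for that form.

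Promoter windows from RefSeq on GRCh38.p14, 250 bases before to 50 after the start, were found for the 9 members described. They are shown for H2AFX, H2AFZ and H3F3B, the member with the stem loop, the member of the H2A.Z pair that fell, and the most abundant member per kilobase of median transcript. CCAAT, a pentamer bound by the factor NF-Y, was searched on both strands and is in capitals, as CCAAT or ATTGG. It occurred 4 times in H2AFX, 3 times in H2AFZ and 4 times in H3F3B. It also occurred 4 times in H2AFV, 3 times in H2AFJ and 0 times in H1FX, and 34.6% of 35116 windows hold it. TATAAA, searched on both strands, occurred once in each of the windows of H2AFX, H2AFZ, H3F3B and H1FX, and 11.5% of all windows hold it. CCAAT thus stood in windows of genes that fell and of genes that were not called.
H2AFX, chr11:119095416-119095715, minus strand: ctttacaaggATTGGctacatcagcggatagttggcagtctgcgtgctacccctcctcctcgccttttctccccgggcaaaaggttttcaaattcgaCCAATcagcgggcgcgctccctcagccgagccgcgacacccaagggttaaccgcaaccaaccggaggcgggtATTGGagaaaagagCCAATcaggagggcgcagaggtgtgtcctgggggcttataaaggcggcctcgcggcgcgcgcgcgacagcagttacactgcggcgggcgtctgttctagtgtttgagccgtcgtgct
H2AFZ, chr4:99950226-99950525, minus strand: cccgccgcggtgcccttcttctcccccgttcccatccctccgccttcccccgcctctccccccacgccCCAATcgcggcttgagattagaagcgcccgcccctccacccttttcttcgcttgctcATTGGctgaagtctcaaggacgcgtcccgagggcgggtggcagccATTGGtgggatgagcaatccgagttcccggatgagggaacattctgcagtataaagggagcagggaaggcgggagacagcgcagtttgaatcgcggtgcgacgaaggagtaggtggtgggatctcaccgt
H3F3B, chr17:75779730-75780029, minus strand: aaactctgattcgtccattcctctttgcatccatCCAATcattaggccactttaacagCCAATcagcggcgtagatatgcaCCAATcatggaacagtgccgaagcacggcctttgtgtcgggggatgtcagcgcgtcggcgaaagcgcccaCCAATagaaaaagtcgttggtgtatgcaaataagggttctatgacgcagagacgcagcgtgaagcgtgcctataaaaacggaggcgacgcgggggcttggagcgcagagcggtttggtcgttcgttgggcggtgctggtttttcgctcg

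The genes that load, move or act on the variants were read from 6 lists. For H2A.Z, the SRCAP and TIP60 complexes insert the variant and INO80 and ANP32E remove it. Of 21 such genes tested, 7 rose and 9 fell, with a median log2 fold change of -0.04. SRCAP, the motor of its complex, averaged 192 ± 12.7 CPM in 7R and 436 ± 33.6 CPM in 786-O (SD, n = 3 each), a log2 fold change of -1.18. VPS72, an H2A.Z-binding subunit of both complexes, averaged 58.4 ± 5.97 CPM in 7R and 143 ± 9.77 CPM in 786-O (-1.29). MRGBP, a TIP60 complex subunit, fell by 1.23 on the log2 scale, and MBTD1, a reader in the same complex, rose by 1.46. With the GC and length offset 4 rose and 10 fell: SRCAP was then at -0.44, VPS72 at -0.45 and MRGBP at -0.51, each still called, and MBTD1 at 0.20, not called. ING3, a TIP60 complex subunit, turned, at 0.58 without the offset and -0.54 with it.

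For H3.3, HIRA with UBN1, UBN2, CABIN1 and ASF1A deposits the histone at genes, and ATRX with DAXX at repeats. Of 8 genes 7 were tested, DAXX being under the filter, and 4 rose and 3 fell, with a median log2 fold change of 0.45. ATRX averaged 110 ± 44.4 CPM in 7R and 20.4 ± 3.22 CPM in 786-O (SD, n = 3 each), a log2 fold change of 2.43. UBN2 averaged 99.4 ± 12.7 CPM in 7R and 35.2 ± 3.64 CPM in 786-O (1.5), and UBN1 86.4 ± 1.75 CPM in 7R and 129 ± 2.43 CPM in 786-O (-0.58). DEK, a chromatin protein described as an H3.3 chaperone, rose by 1.12 on the log2 scale. With the GC and length offset 3 rose and 1 fell: ATRX was at 0.83, still called, while UBN2 (-0.01), DEK (0.21) and UBN1 (-0.12) were not. The other called genes had turned: HIRA was at -0.59 without the offset and 0.19 with it, CABIN1 at -0.26 and then 0.70, and ASF1A at 0.45 and then -0.74.

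The kinases that phosphorylate H2A.X and other factors of the response to breaks mostly moved the other way from H2AFX itself. Of 14 rows 12 were tested, with MDC1 and EYA1 under the filter. Of the 12, 11 rose, 0 fell and RNF8 was not called, with a median log2 fold change of 1.22. ATM, the kinase that starts signalling at breaks, averaged 106 ± 18 CPM in 7R and 20.3 ± 2.77 CPM in 786-O (SD, n = 3 each), a log2 fold change of 2.39. ATR, which answers stalled forks, averaged 88.9 ± 11.1 CPM in 7R and 24.8 ± 2.27 CPM in 786-O (1.84). PRKDC, the catalytic subunit of DNA-PK, averaged 1937 ± 48.2 CPM in 7R and 842 ± 55.5 CPM in 786-O (1.20), and MRE11A, a nuclease of the MRN complex, 40.7 ± 3.94 CPM in 7R and 12.6 ± 1.75 CPM in 786-O (1.69). These genes are GC-poor where H2AFX is GC-rich, for instance 38.6% in ATM. Under the GC and length offset 10 of the 12 still rose and 0 fell, with a median of 0.61, ATM at 1.06, ATR at 0.55, PRKDC at 0.44 and MRE11A at 0.59. Library size alone gave 12 higher and 0 lower.

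Chaperones that serve replication changed both ways. Of 12 tested, 4 rose and 5 fell, with a median log2 fold change of -0.04. ASF1B, the proliferation-linked H3-H4 chaperone, averaged 56.3 ± 4.20 CPM in 7R and 217 ± 23.9 CPM in 786-O (SD, n = 3 each), a log2 fold change of -1.95. CHAF1B, a subunit of the assembly factor CAF-1, averaged 38.5 ± 4.82 CPM in 7R and 104 ± 7.67 CPM in 786-O (-1.43). CHAF1A, its large subunit, fell by 0.89 and TONSL, a reader of new histone H4, by 1.20 on the log2 scale. Under that offset ASF1B (-0.97) and CHAF1B (-1.49) were still called and CHAF1A (0.08) and TONSL (0.20) were not, with 2 higher and 5 lower in all. The 5 were partly other genes, since the chaperone NAP1L1 (0.74 without the offset and -0.28 with it) and the acetyltransferase HAT1 (0.46 and -0.65) changed from higher to lower.

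The genes that transcribe and process stem-loop histone mRNA also changed both ways. Of 10 tested, 4 rose and 5 fell, with a median log2 fold change of -0.24. NPAT, the activator of histone genes in S phase, averaged 45.0 ± 8.58 CPM in 7R and 12.3 ± 1.85 CPM in 786-O (SD, n = 3 each), a log2 fold change of 1.88. SYMPK, a scaffold of the cleavage complex, averaged 95.2 ± 3.74 CPM in 7R and 208 ± 15.2 CPM in 786-O (-1.13). CASP8AP2, a histone locus body protein, rose by 2.18 and LSM10, a subunit of the U7 particle, fell by 1.54 on the log2 scale. Under the offset 2 rose and 5 fell, partly other genes: CPSF2 (1.19 without the offset and -0.33 with it) and CPSF3 (0.36 and -0.29), both cleavage factors, changed from higher to lower. NPAT was then at 0.51, CASP8AP2 at 0.83, LSM10 at -0.61 and SYMPK at -0.10, the last not called.

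S phase and proliferation genes mostly fell beside H2AFX and the replication-dependent histones. Of 20 tested, 2 rose and 11 fell, with a median log2 fold change of -0.60. CDT1, a licensing factor, averaged 24.5 ± 5.61 CPM in 7R and 136 ± 8.99 CPM in 786-O (SD, n = 3 each), a log2 fold change of -2.47. MCM5 averaged 83.6 ± 18 CPM in 7R and 326 ± 30.7 CPM in 786-O (-1.96), and MCM2, like MCM5 a subunit of the replicative helicase, 116 ± 20.9 CPM in 7R and 349 ± 19.2 CPM in 786-O (-1.59). E2F1, an activator of S phase genes, fell by 1.52 on the log2 scale. With the GC and length offset 0 rose and 16 fell, with a median of -0.75, and E2F1 (-0.12) was not called. The 16 thus included genes outside the 11 that fell without it. Library size alone gave 7 higher and 10 lower. The part of the cell cycle in the H2AFX result was not tested, and in bulk RNA fewer cells in S phase and less of an RNA per cell cannot be told apart.

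**Figure D5:**
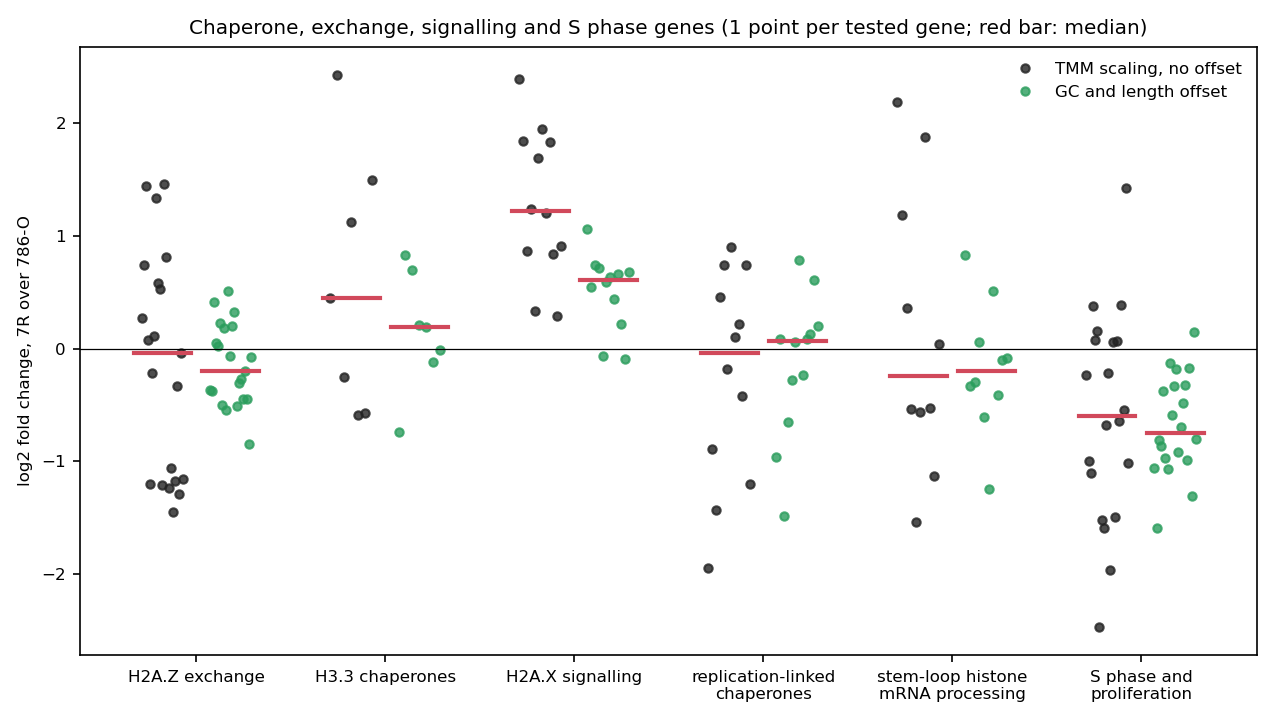
Log2 fold change of 7R over 786-O (vertical axis) for each tested gene of 6 lists, with TMM scaling and no offset in black and with the GC and length offset in green, and a bar at each median. The medians were 1.22 and then 0.61 with the offset for the H2A.X signalling genes, and -0.60 and -0.75 for the S phase genes, while H2A.Z exchange lay near 0 without the offset and at -0.20 with it.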

How the data were processed

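Total RNA of 786-O and 7R cells was sequenced as 3 libraries each, and libraries were grouped by title and phenotype label. The authors deposited a table of whole-number counts per gene symbol, not normalized. HISAT2 2.0.4 is named in the submitters' processing notes. The counter, its strand setting, the build and the annotation were not given in the sources used here.

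Genes were kept by filterByExpr (16642 of 54261), scaled by TMM and tested without covariates by the quasi-likelihood method of edgeR 4.0.16 under R 4.3.3, with Benjamini-Hochberg adjustment at 0.05. Shares within a library were compared by exact permutation (scipy 1.17.1). For the GC and length offset, GC content and length were medians over GENCODE 29 basic transcripts, known for 14150 genes (85.0%). In each library, the log2 CPM of a gene (prior count 1) was taken minus its mean over all libraries. Natural splines on GC content and on log2 length, with 6 and 5 degrees of freedom, were fitted to these differences. If GC content differs for a biological reason, the offset removes that too. The fits were also run on simulated counts of 14150 genes that carried a trend of the same form, so these could not check that form. There the offset left 7 false calls, against 9620 without it, and recovered 41.8% of 1.5-fold changes. Where a gene's transcripts differ in GC content, as for H3F3B and H2AFV, the longest transcript was tried too, chosen after seeing the data.

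The members and lists were chosen with earlier results of these data known, and no test over a list was made. One member is not reported here. All others are named, and of each list at most 4 genes with the smallest p (replication-dependent histones: highest mean CPM). Genes of these lists whose called direction turned under the offset, and the renal and brain markers, were named after their values were seen. Alternatives were RLE, upper quartile and library size scaling, DESeq2 1.42.0, other filters, a replicate block and leaving out each library. Floors for a count of 0 allow for counting error alone, as reads copied by PCR are not separate molecules. Pairs of replicates differed by more than sampling noise, and none was counted as 1 sample.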

Additional observations from a re-analysis of the deposited data

How the results depend on the processing

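H2AFX, H1FX and H2AFZ kept their direction and their call in all 18 alternatives. Depth limits H2AFY2, which stayed under the floor.

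Library size alone put H3F3A at 0.32, H3F3B at 0.23, H2AFV at 0.52 and H2AFY at 0.089 (log2), with 2 members called higher. Upper quartile factors gave 0.043 for H3F3A and -0.19 for H2AFY, and the filter at 1 CPM in 3 libraries gave 0.026 and -0.21. The GC and length offset gave -0.84 for H3F3A, 0.42 for H3F3B, 0.21 for H2AFV, -0.25 for H2AFJ and 0.38 for H2AFY, with 3 members higher. Under it the 7R minus 786-O difference was -19.8 percentage points for the H2AFZ share (-14.6 without it) and -5.08 for the H3F3A share, which turned sign (0.36 without it). GC alone gave -0.90, 0.53, 0.32, -0.10 and 0.23 for the same 5 genes, with 3 higher. The longest transcript gave -0.90 for H3F3A, -0.58 for H3F3B, -0.40 for H2AFV and 0.69 for H2AFY, with 1 member higher and 7 lower. Genes with a GC value but no offset gave 0.063 for H3F3A, 0.26 for H2AFV and -0.17 for H2AFY, with 1 higher. H3F3A summed with its pseudogene rows under the offset gave -0.91, with 3 members higher. That summed row took the GC content of H3F3A (42.1%), although most of its counts were from H3F3AP4 (51.6%). H3F3AP4 on its own was at 0.087 under the offset (edgeR adjusted p = 0.403). Leaving out 1 library gave -0.098 to 0.025 for H3F3A and -0.33 to -0.21 for H2AFY. The cause of these changes was not tested. RLE factors, no filter and DESeq2 changed no call among the tested members.

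The replicate numbers do not pair the libraries: same-numbered libraries deviated from their group means with correlations of -0.15, -0.02 and -0.07. A fit with the number as a block called 6246 genes higher and 5851 lower. It gave -0.26 for H2AFY, no longer called (edgeR adjusted p = 0.0882), and changed no other member's call. With the block and the GC and length offset together, H3F3A was at -0.84, H3F3B at 0.42, H2AFJ at -0.25 and H2AFY at 0.38, with 2 members higher.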

Other observations

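Other histone variants, outside the 10 members, were mostly silent. Of 15 such genes, among them testis and oocyte variants, 7 were at 0 in all 6 libraries and 3 were tested. CENPA, the H3 variant of centromeres, held 32.6, 27.6 and 29.9 CPM in the 7R libraries, against 47.2, 54.9 and 53.3 CPM in the 786-O libraries, with no overlap and a log2 fold change of -0.79 (edgeR adjusted p = 5.17e-05) and of -0.84 with the GC and length offset. H2BFS averaged 0.599 ± 0.155 CPM in 7R and 2.45 ± 0.49 CPM in 786-O (SD, n = 3 each). HIST1H1T, a testis linker histone, averaged 0.0312 ± 0.0138 CPM in 7R, under the floor of 3 counts, and 0.519 ± 0.137 CPM in 786-O (SD, n = 3 each).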
